A study of Mus musculus with 8 samples.

Results

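The genes described here are 6 markers of the red blood cell lineage, Alas2, Gata1, Klf1, Slc4a1, Tfrc and Epor, measured in whole pancreas of mice aged 1 week. A gene was a member if a probe outside the array's control set carried its name, and each of the 6 names had 1 probe, so that 6 of 41174 probes, and 6 of 21312 genes with a symbol, are described. The arrays compared 4 wild type (WT) mice with 4 Glis3KO2 mice, all of strain C57BL/6 and left with their mothers. Glis3 is a zinc finger transcription factor of the pancreatic beta cell, and the name of the series concerns its part in the development and maturation of those cells. The labels give no more of the allele than the name Glis3KO2, and no sex or litter. Nothing in the labels ties the samples to litters or to separate days, and a p-value here reflects the spread among 8 samples, part of which may be technical.

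Red cells are made from progenitors that respond to erythropoietin through its receptor, Epor, and that come under the control of the transcription factors Gata1 and Klf1. As they mature they import iron through the transferrin receptor, Tfrc, make heme with Alas2 as the first and rate-limiting enzyme in erythroid cells, fill with globin, and insert the anion exchanger Slc4a1, known as band 3, into the membrane. Young reticulocytes keep part of their RNA after they enter the blood, so a piece of tissue with blood in it carries erythroid transcripts. In whole tissue, fewer cells of a type and less RNA per cell cannot be told apart.

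None of the 6 genes passed the test for genotype, and their main pattern was a spread between single mice that Klf1 and Slc4a1 shared. The values are log2 processed signals relative to the 75th percentile (P75) of each array, so 0 is the signal below which 75% of that array's spots lie. Differences are Glis3KO2 minus WT on that log2 scale with the standard error, and adjusted p-values come from limma with Benjamini-Hochberg adjustment over 33253 tested probes. At an adjusted p of 0.05, 85 of the tested probes passed, which is 0.256% of them (0.0812% higher and 0.174% lower in Glis3KO2), and 0 of the 6 members passed. Without adjustment, 0 of the 6 members and 2982 of all tested probes (8.97%) had a p under 0.05. The members' median difference was 0.28, against -0.01 over all tested probes.

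Facts of the arrays bear on every value that follows. The 4 WT arrays lay on 1 slide and the 4 Glis3KO2 arrays on another, each scanned by itself, and the effects of slide and of genotype cannot be told apart. Glis3 itself had 1 probe, well above background on 3 of the 8 arrays, with values from -6.06 to -5.35 on the WT arrays and from -6.43 to -5.93 on the Glis3KO2 arrays. The labels do not say whether this probe lies in the part of the gene that was altered. Insulin was lower on the Glis3KO2 arrays: Ins2 differed by -3.70 ± 0.22 (SE, n = 4 and 4, limma adjusted p = 0.000538). In the first component of all tested probes, Glis3KO2 replicates 3 and 4 stood apart, at 39.8 and 59.0 against -25.9 to 0.38 for the other arrays. Xist, expressed from the inactive X chromosome, was high on 1 WT array (replicate 4) and on 3 Glis3KO2 arrays (replicates 1, 3 and 4). The Y-linked genes Ddx3y, Eif2s3y, Kdm5d and Uty were each lower on those arrays than on every other array. By these transcripts the sexes were not balanced between the genotypes, and Xist as a covariate stands for sex below. Both Alas2 and Gata1 are X-linked.

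The upstream windows of Alas2, Gata1, Klf1 and Epor are shown because the erythroid factors measured here bind short motifs of this kind, and because these genes were read side by side. Each is the 250 bases before the gene's start in the RefSeq promoter table (build GRCm38.p6), 5′ to 3′ on the gene's strand. Capitals mark AGATAA or TGATAA, the letters that GATA factors bind, and CCNCNCCC, a form of the CACCC box that Klf proteins bind, each searched on both strands; joined capitals hold overlapping matches.
Alas2 (chrX:150547167-150547416, plus strand): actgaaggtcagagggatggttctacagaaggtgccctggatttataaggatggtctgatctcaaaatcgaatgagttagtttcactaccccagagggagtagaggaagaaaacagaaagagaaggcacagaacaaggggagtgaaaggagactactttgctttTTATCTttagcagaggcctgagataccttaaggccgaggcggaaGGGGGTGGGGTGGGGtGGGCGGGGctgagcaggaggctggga
Gata1 (chrX:7967911-7968160, minus strand): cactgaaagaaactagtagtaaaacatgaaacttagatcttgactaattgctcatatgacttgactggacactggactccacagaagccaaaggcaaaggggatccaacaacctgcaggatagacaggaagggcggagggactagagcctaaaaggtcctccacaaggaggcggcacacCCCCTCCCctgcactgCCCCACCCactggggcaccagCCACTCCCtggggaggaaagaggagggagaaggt
Klf1 (chr8:84901732-84901981, plus strand): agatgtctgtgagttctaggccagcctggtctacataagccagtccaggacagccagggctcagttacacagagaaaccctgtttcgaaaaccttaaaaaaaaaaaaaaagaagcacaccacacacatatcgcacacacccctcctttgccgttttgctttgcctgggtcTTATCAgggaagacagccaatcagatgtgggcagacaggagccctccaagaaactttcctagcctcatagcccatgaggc
Epor (chr9:21963577-21963826, minus strand): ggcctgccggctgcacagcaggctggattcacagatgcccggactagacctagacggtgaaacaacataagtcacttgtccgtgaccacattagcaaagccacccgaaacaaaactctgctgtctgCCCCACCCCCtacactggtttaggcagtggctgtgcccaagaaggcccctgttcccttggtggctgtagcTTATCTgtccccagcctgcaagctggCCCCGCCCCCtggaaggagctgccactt

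Alas2 and Epor each held 1 AGATAA and 4 matches to the CACCC form, some of which overlap. Counted from the start, with -1 the last base before it, the Alas2 AGATAA lay on the minus strand at -86 to -81 and that of Epor, also on the minus strand, at -54 to -49. Klf1 held 1 TGATAA, on the minus strand at -80 to -75, and no CACCC match, while Gata1 held 3 CACCC matches and no GATA match. Tfrc had 2 windows in the table, with 3 and 2 CACCC matches and no GATA match. Of 32851 windows of this length in the table, 16.6% held a GATA match, 45.9% a CACCC match and 4.5% both. These matches are letters in a window and not measured binding.

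The early members are the receptor Epor and the factors Gata1 and Klf1. Epor, read from a probe at chr9:21837376-21837435 (build mm7, minus strand), was at -0.73, -1.06, -0.67 and -0.62 on WT replicates 1 to 4, and at -0.35, -0.58, -0.76 and -0.20 on Glis3KO2 replicates 1 to 4. Its 3 highest values were on Glis3KO2 arrays, but Glis3KO2 replicate 3 lay below 3 of the WT arrays, so the groups overlapped. The difference was 0.30 ± 0.15, with a 95% interval from -0.05 to 0.65 (limma adjusted p = 0.624).

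Gata1, a factor that red cell formation requires and that also serves megakaryocytes, mast cells and eosinophils, was read at chrX:6392873-6392932 (mm7, minus strand). Its WT values were -3.88, -3.75, -3.89 and -3.66, and its Glis3KO2 values -3.28, -3.66, -3.80 and -3.41. Glis3KO2 replicates 1 and 4 were the highest of the 8 arrays, Glis3KO2 replicate 2 was level with the highest WT array, and replicate 3 lay within the WT range. The difference was 0.26 ± 0.13, with an interval from -0.04 to 0.56 (limma adjusted p = 0.626). With normexp background correction it was 0.04, and with Xist as a covariate 0.17.

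Klf1, the factor that switches on adult beta globin and many membrane genes, was read at chr8:83491092-83491151 (mm7, plus strand). The WT arrays gave -5.06, -3.74, -2.97 and -4.05, and the Glis3KO2 arrays -3.55, -3.73, -3.87 and -2.55. WT replicate 1 was the lowest array and Glis3KO2 replicate 4 the highest, a 5.69-fold span over the 8 mice, and the groups overlapped. The WT arrays alone spanned 4.25-fold. The difference was 0.53 ± 0.44, with an interval from -0.46 to 1.52 (limma adjusted p = 0.773). It was 0.16 without WT replicate 1, 0.24 without Glis3KO2 replicate 4 and 0.11 with normexp background correction. The Klf1 probe was dim, with a processed signal of 14.9 on WT replicate 1 and 93.2 on Glis3KO2 replicate 4, yet it was well above background on all 8 arrays, as were the probes of the other members.

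The other members are the iron importer Tfrc, the heme enzyme Alas2 and the membrane protein Slc4a1. Tfrc, which all dividing cells use for iron uptake, was read at chr16:32306693-32306752 (mm7, plus strand). Its values were 0.30, 0.44, -0.11 and -0.10 on the WT arrays and -0.04, 0.04, 0.17 and 0.26 on the Glis3KO2 arrays. It varied least of the 6, by 1.46-fold over all mice, and the Glis3KO2 values lay inside the WT range. The difference was -0.02 ± 0.15, with an interval from -0.36 to 0.32 (limma adjusted p = 0.983), and its sign turned under several alternatives.

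Alas2 was read at chrX:145329125-145329184 (mm7, plus strand). The WT arrays gave 2.0, 1.93, 2.39 and 1.96, and the Glis3KO2 arrays 2.45, 1.49, 1.73 and 2.22. WT replicates 1, 2 and 4 lay within a narrow band with replicate 3 above them, and the Glis3KO2 arrays held both the highest value, replicate 1, and the lowest, replicate 2. The difference was -0.09 ± 0.22, with an interval from -0.58 to 0.39 (limma adjusted p = 0.940), or between a 0.668-fold and a 1.31-fold level in Glis3KO2. It was -0.20 with Xist as a covariate, and it turned to 0.01 without WT replicate 3 and 0.07 without Glis3KO2 replicate 2.

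Slc4a1 was read at chr11:102457981-102458040 (mm7, minus strand). Its WT values were -0.66, -0.02, 1.09 and 0.31, and its Glis3KO2 values 1.03, 0.19, 0.48 and 1.98. As for Klf1, WT replicate 1 was lowest and Glis3KO2 replicate 4 highest, and the 8 mice spanned 6.24-fold with overlapping groups. The difference was 0.74 ± 0.45, the largest of the 6, with an interval from -0.27 to 1.75 (limma adjusted p = 0.688). It was 0.46 without WT replicate 1, 0.38 without Glis3KO2 replicate 4 and 0.48 with Xist as a covariate.

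**Figure D1:**
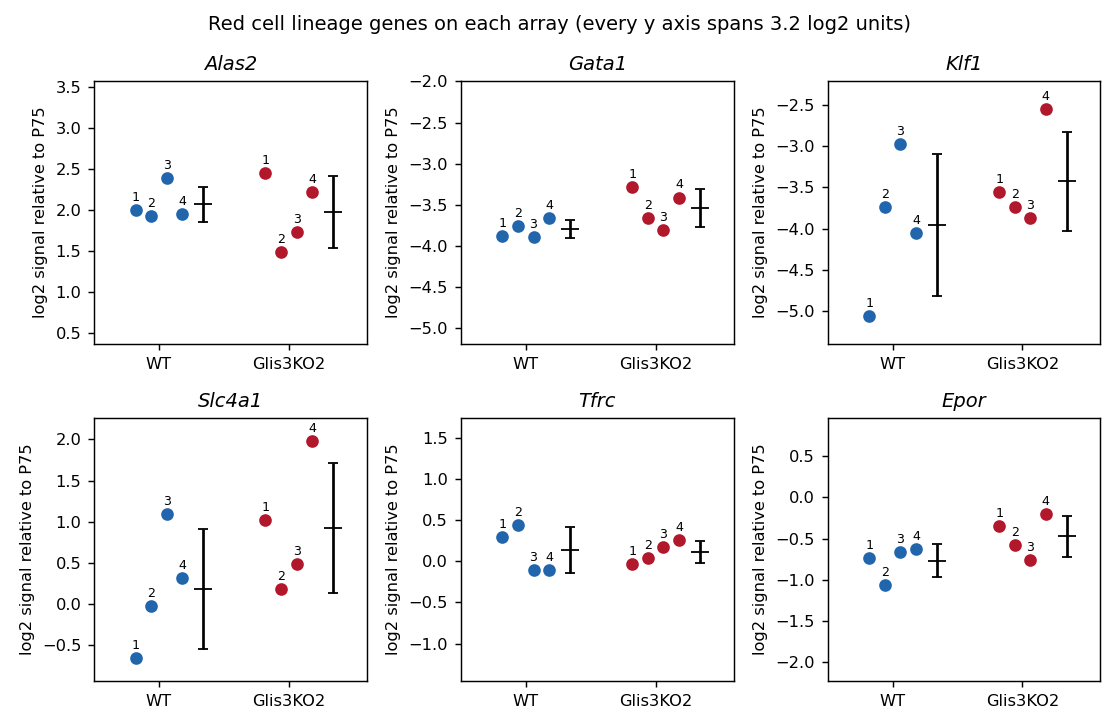
Log2 signal relative to P75 (y axis) of the 6 red cell lineage genes on each of 4 WT (blue) and 4 Glis3KO2 (red) arrays, numbered by replicate; the horizontal mark is the group mean and the bar its SD. Every panel spans the same number of log2 units, so the wide scatter of Klf1 and Slc4a1 can be set beside the narrow one of Tfrc (1.46-fold over all arrays), and the groups overlap in every panel.

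The spread between mice of one genotype set Klf1 and Slc4a1 apart from the other members. The residual SD within genotype was 0.74 for Klf1 and 0.76 for Slc4a1 in log2 units, above 97.2% and 97.5% of tested probes. Alas2 had a residual SD of 0.35, above 79.4% of probes. Epor (0.22), Tfrc (0.22) and Gata1 (0.18) lay near the median of all tested probes, 0.21. With normexp background correction, which compresses dim probes, the residual SD of Klf1 was 0.33 and that of Slc4a1 0.70, above 96.0% and 99.6% of probes on that scale.

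**Figure D2:**
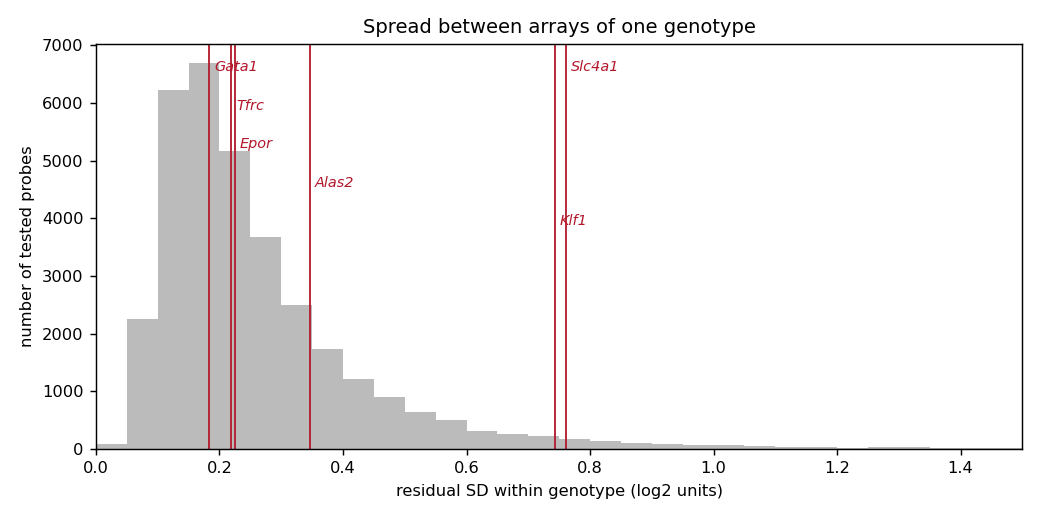
Number of tested probes (y axis) by residual SD within genotype in log2 units (x axis, shown to 1.5), with red lines at the 6 genes. Gata1, Tfrc and Epor sit in the bulk of the histogram, Alas2 on its right shoulder, and Klf1 and Slc4a1 far in its right tail.

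Klf1 and Slc4a1 varied together across the mice. Of the 15 pairs of members, theirs was the 1 pair past an adjusted p of 0.05: Pearson's r was 0.925 over the 8 arrays (exact permutation p = 0.00198, 2-sided, adjusted over the 15 pairs 0.0298). Spearman's rho was 0.81 (exact permutation p = 0.0218, adjusted 0.327). Both tests permuted all 8 arrays across genotypes and slides, and the members were chosen with earlier results of these data known. Their p-values are therefore descriptions and not independent evidence. With each genotype centred on its own mean, which is also within slide, r was 0.916, and without WT replicate 1 and Glis3KO2 replicate 4, the arrays farthest from the Klf1 median, r was 0.717 over 6 arrays. With normexp background correction r was 0.863 (exact permutation test, adjusted p = 0.0807), and with each array left out in turn r stayed between 0.879 and 0.958, with an adjusted p over 0.05 in 7 of the 8 cases, WT replicate 2 excepted.

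The other pairs did not pass. Gata1 with Epor had r = 0.755 (exact permutation p = 0.0307, adjusted 0.189; rho 0.738, adjusted 0.344), but r = 0.181 without Glis3KO2 replicates 1 and 4, so it rested on those arrays. Slc4a1 with Epor had r = 0.736 (exact permutation p = 0.0378, adjusted 0.189; rho 0.595, adjusted 0.496) and r = 0.636 without WT replicate 1 and Glis3KO2 replicate 4. Alas2 with Slc4a1 had r = 0.547 (exact permutation p = 0.157, adjusted 0.472; rho 0.548, adjusted 0.513). All 5 pairs with Tfrc had a negative r, from -0.38 with Epor to -0.15 with Gata1, and the other 10 a positive one.

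The r of Alas2 with adult globins was above its r with any other member, which was at most 0.547. Hba-a1, an adult alpha globin gene, was at 6.56, 6.60, 7.01 and 6.62 on the WT arrays and at 7.01, 6.15, 6.37 and 6.87 on the Glis3KO2 arrays, and its r with Alas2 was 0.992. Hbb-b1, an adult beta globin gene, was at 7.79, 7.65, 7.99 and 7.69 and then at 8.06, 7.23, 7.37 and 7.77, with an r of 0.971. These r values describe 8 arrays that share scaling and RNA input, and carry no test. WT replicate 3 and Glis3KO2 replicate 1 were the 2 highest arrays for all 3 genes, and Glis3KO2 replicates 2 and 3 the 2 lowest. Near-identical globin copies can share signal on a probe: Hba-a2, Hbb-b2 and Hbb-bs had no probe of their own name, and Hbb-bt was read from the 4 probes of Hbb-b1.

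**Figure D3:**
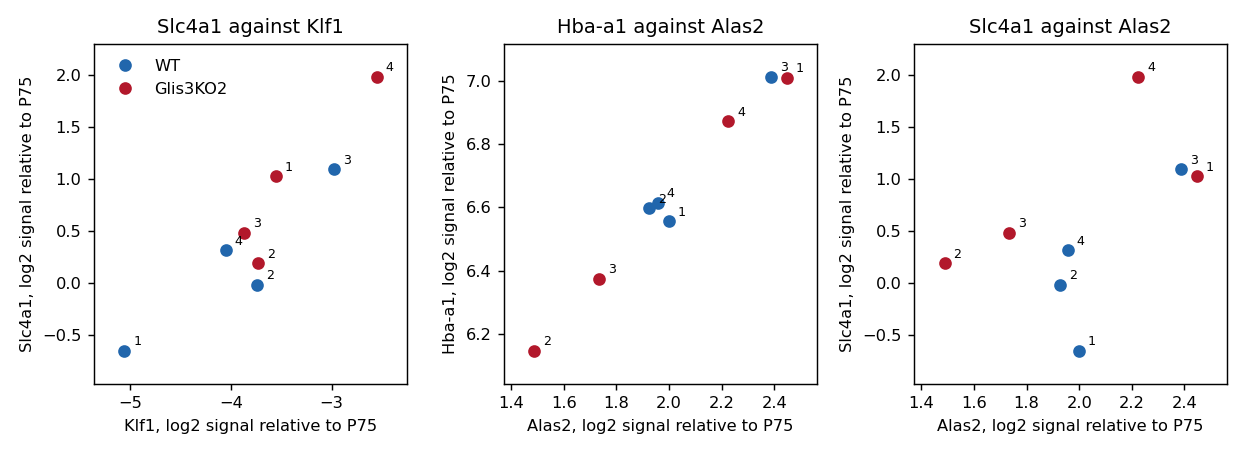
Log2 signals relative to P75 of 3 pairs of genes on 8 arrays (WT blue, Glis3KO2 red, numbered by replicate). Slc4a1 follows Klf1 (left, r = 0.925) and Hba-a1 follows Alas2 (middle, r = 0.992), while Slc4a1 and Alas2 (right, r = 0.547) part mainly at WT replicate 1 and Glis3KO2 replicate 4.

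Globin levels did not pass the test for genotype. Of 10 genes listed as globins or globin chaperone, 5 were tested and 0 passed, with 1 at an unadjusted p under 0.05, against 8.97% of all tested probes. The chaperone that protects free alpha globin, Ahsp, was found after values were seen, under its older name Eraf. Eraf was at -3.05, -1.40, 0.67 and -0.36 on the WT arrays and at 0.25, -0.76, 0.01 and 1.45 on the Glis3KO2 arrays, so the groups overlapped, and its difference was 1.27 ± 0.75 (limma adjusted p = 0.683). Hba-a1 differed by -0.10 ± 0.21 and Hbb-b1 by -0.17 ± 0.19 (limma adjusted p = 0.933 and 0.844). Hbb-y, an embryonic beta-like globin, differed by -0.41 ± 0.13 (limma adjusted p = 0.412), and Hbb-bh1, another embryonic chain, by 0.49 ± 0.38 (adjusted p = 0.759). The probe of Hba-x, the embryonic alpha-like chain, was well above background on 0 of the 8 arrays and was not tested.

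No heme synthesis gene passed the test either. Of 12 tested, 0 passed and 0 had an unadjusted p under 0.05, and their median difference was 0.12, which was 0.05 with Xist as a covariate, 0.07 without WT replicate 1, 0.21 without Glis3KO2 replicate 2, 0.0037 without Glis3KO2 replicate 4 and -0.06 without Glis3KO2 replicates 3 and 4. Slc25a38, a mitochondrial carrier needed for heme synthesis, was lowest at -0.10 ± 0.11 (limma adjusted p = 0.855). Slc25a37, the mitochondrial iron importer known as mitoferrin, had an r of 0.734 with Alas2 and 0.865 with Slc4a1, and is named after its values were seen. It was the 1 heme gene of 12 with an r over 0.7 with Alas2. The list's median r was 0.33 with Alas2 and 0.55 with Slc4a1, and its lowest r with Alas2 was -0.35, for Alad.

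Of 19 tested genes of the membrane, blood groups and red cell enzymes, 0 passed and 2 had an unadjusted p under 0.05, against 8.97% of all tested probes. Their differences were positive for 16, and the median was 0.18, against -0.01 over all tested probes. The median was 0.06 with normexp background correction, 0.11 with Xist as a covariate, 0.10 without WT replicate 1 and 0.06 without Glis3KO2 replicate 4. Kel, a blood group protein, was at -3.50, -2.56, -1.87 and -2.36 on the WT arrays and at -0.35, -2.22, -1.55 and 0.43 on the Glis3KO2 arrays. Glis3KO2 replicates 1, 3 and 4 were above all WT arrays, replicate 3 by the least, and replicate 2 lay within the WT range. Those above were also the Glis3KO2 arrays high in Xist, while the WT array high in Xist, replicate 4, was at -2.36 for Kel. Whether sex bears on Kel was not tested. The difference was 1.65 ± 0.56 (limma adjusted p = 0.435). Epb41, the skeletal protein 4.1, was the lowest at -0.24 ± 0.18 (adjusted p = 0.746).

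Of 12 erythroid transcription factors and nuclear proteins, 0 passed and 0 had an unadjusted p under 0.05, with a median of 0.10, which was 0.04 without Glis3KO2 replicate 4 and 0.15 without Glis3KO2 replicate 2. Hemgn, an erythroid nuclear protein, had the largest span of them, 26.5-fold over the 8 arrays, with -5.30, -3.06, -0.70 and -3.30 on the WT arrays and -1.79, -2.89, -2.09 and -0.57 on the Glis3KO2 arrays. Its difference of 1.25 ± 0.87 (limma adjusted p = 0.725) was the highest of the list, and that of Lyl1, a relative of Tal1, the lowest at -0.11 ± 0.14 (adjusted p = 0.877).

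Many genes of the membrane and factor lists varied with Slc4a1, and fewer of the heme and globin lists. Against Slc4a1, 11 of 19 membrane genes and 6 of 12 factors had an r over 0.7, as had 3.07% of all tested probes, and the list medians were 0.84 and 0.70. Of heme genes 3 of 12 did, and of globins, Eraf not counted, 0 of 4, with medians of 0.55 and 0.01. Platelet markers, which are not of the red cell, also had 3 of 12. The globin median joins unlike values: the adult Hba-a1 and Hbb-b1 had an r of 0.60 and 0.35 with Slc4a1. The embryonic Hbb-bh1 and Hbb-y had -0.33 and -0.83, and Eraf had 0.951. Within the membrane list, Sptb had an r of -0.71. Against Alas2, 2 of 19 membrane genes, 1 of 12 factors, 1 of 12 heme genes and 2 of 4 globins had an r over 0.7, as had 2.08% of all tested probes. WT replicate 1 was lowest and Glis3KO2 replicate 4 highest for 9 of 19 membrane genes and 4 of 12 factors, against 2.94% of tested probes with a value on every array. The same held for 1 of 12 heme genes and, Eraf not counted, 0 of 4 globins. Eraf itself was lowest on WT replicate 1 (-3.05) and highest on Glis3KO2 replicate 4 (1.45). The rule and the lists were not independent of these patterns, which earlier work on these data had shown in part.

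**Figure D4:**
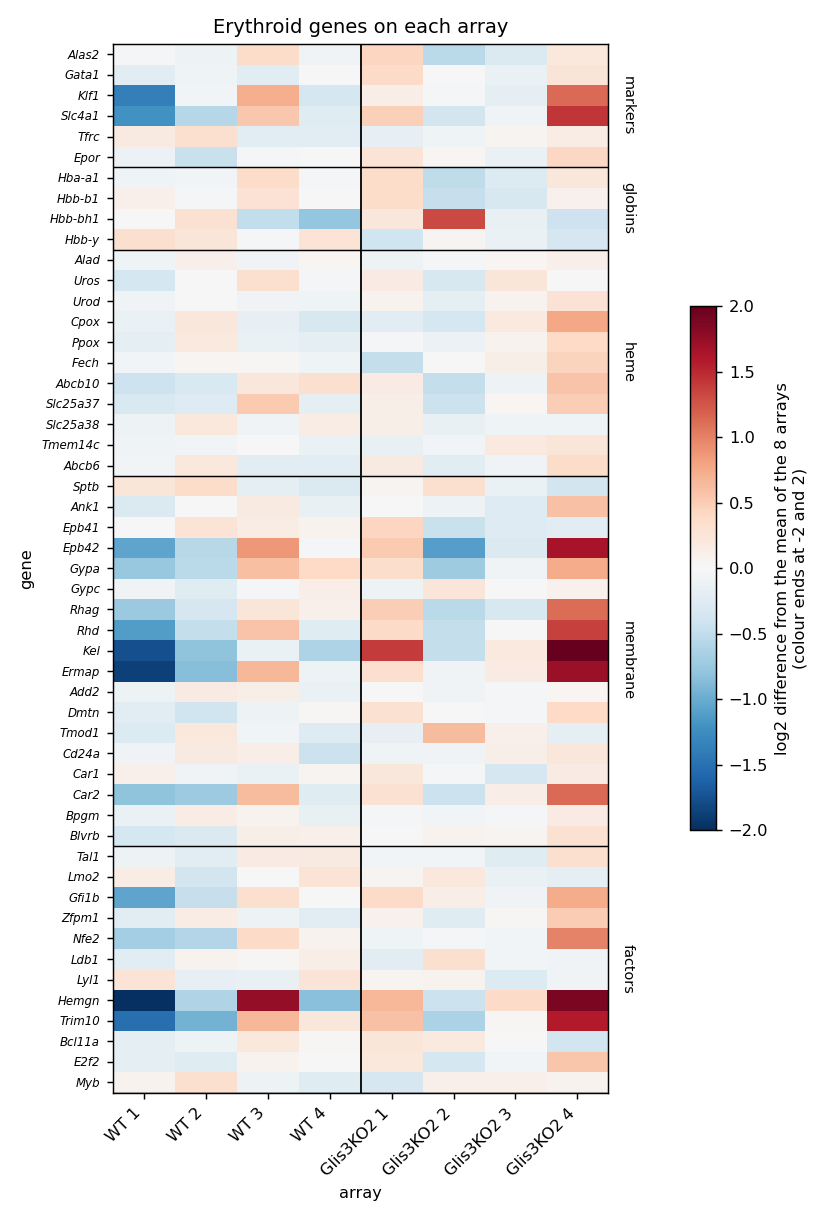
Log2 difference from the mean of the 8 arrays (colour, ending at -2 and 2) for the 6 marker genes and tested genes of 4 erythroid lists (rows) on each array (columns, WT left and Glis3KO2 right). Klf1, Slc4a1 and genes such as Kel, Ermap, Hemgn and Trim10 are lowest on WT replicate 1 and highest or near the highest on Glis3KO2 replicate 4, while Alas2, Hba-a1 and Hbb-b1 follow another order.

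By likeness to Slc4a1 across the 8 arrays, among tested probes with an SD of at least 0.5, the closest genes were red cell genes; likeness to Slc4a1 was added after values were seen. Rhd, the Rh blood group protein, came first with r = 0.996. Trim10 (0.971), needed for late erythroid maturation, Ermap (0.970), another blood group protein, and Car2 (0.968), a carbonic anhydrase, followed, and then Apol2 (0.966) and Btnl10 (0.959). Eraf (0.951), an older name of the alpha globin chaperone, Epb42 (0.941), the skeletal protein 4.2, and Rhag (0.941), the Rh-associated glycoprotein, were also among the nearest 10. Eraf spanned 22.6-fold and Ermap 12.1-fold over the arrays. Of the 10, 8 were on the erythroid lists with Eraf counted, and 18 of the 2995 probes compared (0.601%) had an r over 0.9.

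By the same measure the nearest 10 named genes to Alas2 included Add2, Olfr576, Actrt1, Sorcs2, Rprml, 4930588J15Rik, Brwd3, Ank1 and Wdr72, with r from 0.835 to 0.887 for the 10; 2 probes with no gene symbol had an r over 0.9. The 10 were dim probes, well above background on 4 to 7 of the 8 arrays. Those of Add2, a membrane skeleton gene, and Ank1, which encodes ankyrin, were not the brightest probes of their genes. The adult globins varied too little to enter, with an SD of 0.31 for Hba-a1 and 0.28 for Hbb-b1. The 5 nearest to Tfrc were Cep128, Gm10413, 1110032L06Rik, LOC632412 and Gdf15, with r from 0.766 to 0.828.

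No gene of iron handling or of the erythropoietin pathway passed. Of 13 iron handling genes, 0 passed and 1 had an unadjusted p under 0.05, against 8.97% of all tested probes. Their median was 0.04, from -0.03 to 0.08 over the alternatives. Trf, the plasma iron carrier transferrin that Tfrc binds, was lowest at -0.32 ± 0.12, and Tfr2, the second transferrin receptor, highest at 0.52 ± 0.30 (limma adjusted p = 0.481 and 0.672). Of 13 genes of erythropoietin and stem cell factor signalling, 0 passed and 0 had an unadjusted p under 0.05, with a median of -0.04, from -0.07 to 0.01 over the alternatives. Lyn, a kinase that acts with Epor, was lowest at -0.25 ± 0.11, and Erfe, an erythroblast hormone induced by erythropoietin, highest at 0.24 ± 0.37 (adjusted p = 0.566 and 0.899).

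**Figure D5:**
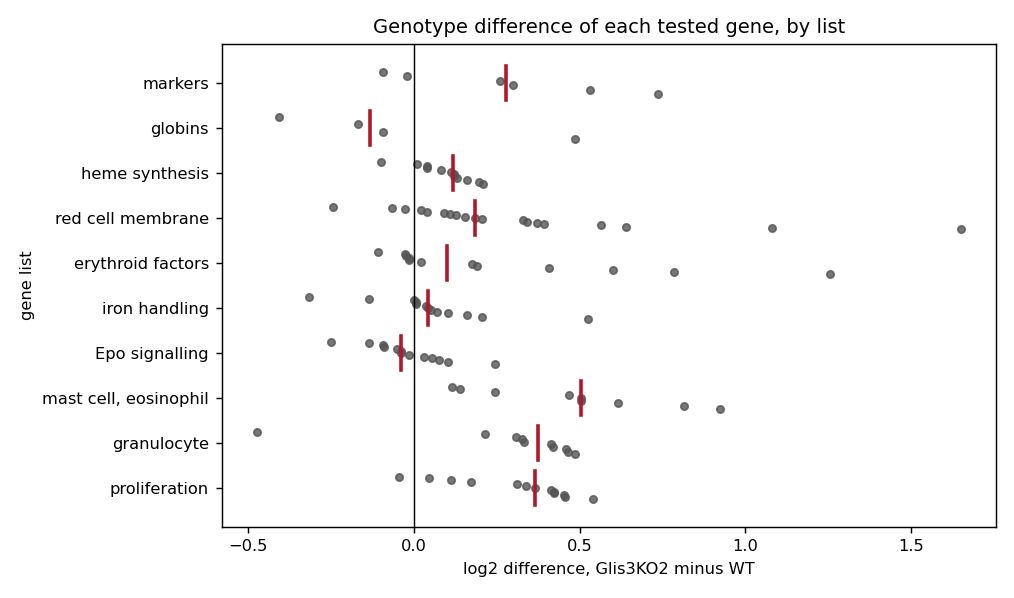
Log2 difference Glis3KO2 minus WT (x axis) of each tested gene in 10 gene lists (rows); each point is a gene and the red bar the list's median. None of these genes passed the test; Eraf is not plotted, and the widest points to the right are Kel (1.65), Hemgn (1.25) and Ermap (1.08).

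Markers of other blood cells and of proliferation also varied between arrays, and their part in the spread was not tested. Summed over 10 B and T cell markers, the linear signal relative to P75 was 9.47 on WT replicate 1 and 3.39 to 5.72 on the other arrays. Over 10 granulocyte markers it was 3.13 to 9.47 on WT arrays and 3.81 to 11.1 on Glis3KO2 arrays, highest on Glis3KO2 replicate 4. Most of this granulocyte sum came from S100a9, at 3.04 in log2 on that array, where the next marker, S100a8, was at -0.25. Over 13 proliferation genes the summed signal was 70.8 to 82.7 on WT arrays and 72.7 to 109 on Glis3KO2 arrays, lowest on WT replicate 1 and highest on Glis3KO2 replicate 4. Of these 13 genes, 12 had a positive difference, with a median of 0.36, against -0.01 over all tested probes. An unadjusted p under 0.05 was found for 6 of them, against 8.97% of all tested probes, and 0 passed. The median difference ran from 0.19 to 0.50 over the alternatives. Relative to each gene's WT mean, the median of the 13 genes was 0.23, 0.03, 0.57 and 0.49 on Glis3KO2 replicates 1 to 4. On the WT arrays it ran from -0.14 to 0.12. Mcm2, a replication licensing gene, was lowest at -0.04 ± 0.15 and Ccnb1, a mitotic cyclin, highest at 0.54 ± 0.13 (limma adjusted p = 0.964 and 0.217). Proliferation genes had a median r of 0.52 with Slc4a1 and of 0.04 with Alas2.

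Gata1 is also a gene of mast cells and eosinophils. All 9 tested markers of these cells had a positive difference, with a median of 0.50, against -0.01 over all tested probes. Of the 9, 3 had an unadjusted p under 0.05, against 8.97% of all tested probes, and 0 passed. Ms4a2 was lowest at 0.12 ± 0.16 and Prg2, an eosinophil granule protein, highest at 0.92 ± 0.42 (limma adjusted p = 0.884 and 0.571). The median was 0.21 both with normexp background correction and with Xist as a covariate, and 0.31 without WT replicate 2. The summed signal of these markers was 3.01 to 7.22 on WT arrays and 5.03 to 7.40 on Glis3KO2 arrays. Cma1 was the largest part of it on Glis3KO2 replicate 3, at 2.05 in log2, where the next marker, Cpa3, was at 0.34. The median r of these markers with Gata1 was 0.27 and that of 12 platelet and megakaryocyte markers 0.48. A positive median was not particular to these cells. It was 0.44 for the membrane list, 0.43 for granulocyte markers and 0.42 for proliferation genes, but -0.43 for islet and -0.40 for endothelial markers. The part of these cells in the Gata1 and Epor values was not tested.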

How the data were processed

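Total RNA of 8 pancreata was labelled with Cy3 and hybridised to 1-colour Agilent arrays, 1 per mouse. Per the file headers, the authors' deposited spot intensity values are processed signals of Agilent Feature Extraction 9.5.3.1, with background removed and detrended, unscaled between arrays; the submitters' processing notes give version 9.5. Probe positions are on build mm7, per the file headers. Here log2 was taken and each array's 75th percentile (460 to 694) subtracted; 56 to 130 flagged spots per array were dropped and none was saturated. Probes well above background on at least 4 arrays were tested with limma 3.58.1 in R 4.3.3, by genotype alone. Genes with several tested probes were represented by the brightest. RefSeq accessions were given for 25510 probes, and 22944 of these were found in the reference table. The members, lists and tests were chosen with earlier results of these data known. Named were all members and globins, each described list's lowest and highest gene and those past the threshold (up to 4), and the nearest genes by r; a few genes that this rule names are not reported here. The number of arrays limits the precision. Simulated data were used to check the fit.

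The same-numbered WT and Glis3KO2 arrays were not treated as pairs. Beside the lists in the report, 12 platelet, 12 macrophage, 7 hepatocyte, 10 endothelial, 10 acinar and 6 islet markers were tested: medians were 0.01, -0.01, 0.13, -0.17, -0.14 and -1.37, and 3 islet genes (Ins1, Ins2 and Ppy, all lower) passed.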

Additional observations from a re-analysis of the deposited data

Results flagged for a closer look

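Among the 12 groups of 4 values formed by 6 genes and 2 genotypes, 1 held a sample far from the others. Alas2 on WT replicate 3 was 2.39, and its gap to the next WT array took 0.841 of the group's range, above Dixon's 95% critical value for 4 samples; chance gives about 1 such group in 20. Hba-a1 was high on the same array, at 7.01.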

How the results depend on the processing

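No member passed the threshold under any of 20 alternatives per gene. The count of 85 probes past it was 51 with no filter on dim probes, 15 with the replicate block, 142 with a trended robust eBayes, 27 with Xist as a covariate, 11 without Glis3KO2 replicates 3 and 4, and 36 to 97 with each array left out; the cause was not tested. The deviations of same-numbered arrays correlated at 0.13, 0.09, 0.24 and -0.04, and those of differently numbered arrays at -0.20 to 0.14. Whether the numbers pair the mice was not tested. The Tfrc difference turned to 0.0041 with median scaling, 0.0070 with array weights and 0.025 with Xist, and ran from -0.10 to 0.079 with each array left out; that of Alas2 ran from -0.25 to 0.068. Those of Gata1, Klf1, Slc4a1 and Epor stayed positive in all 20. The pairs past the threshold were 0 with normexp and 0 to 1 with each array left out. Gata1 with Tfrc turned to 0.033 under quantile normalization; with each array left out r ran from -0.42 to 0.10 for it, -0.50 to 0.10 for Klf1 with Tfrc, -0.78 to 0.078 for Tfrc with Epor, and -0.021 to 0.68 for Alas2 with Gata1. Gata1 and Klf1 were dim, and normexp took their differences to 0.04 and 0.11.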
